A study of Mus musculus with 21 samples.

Results

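Lysosomal hydrolases and the membrane and sorting proteins that serve them were followed in cultured cortical neurons from mice, as a list of 55 genes taken by symbol. The list held 12 proteases, 17 glycosidases and sulfatases with their partner enzymes, 11 lipid or phosphate hydrolases and their activators, 11 membrane proteins, and 4 genes for sorting receptors or luminal cofactors. Each of the 55 symbols was found in each of the 4 deposited tables, which together named 22040 genes. The list was drawn from the rows of these tables, so lysosomal genes lost to a filter on low expression would not appear in it.

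The RNA came from 21 primary cultures. Vehicle was given to 5 Tau and 5 WT cultures, and AdipoRon to 5 Tau and 6 WT cultures. Tau cultures carried the hTau P301S transgene, a mutant human tau driven by the prion promoter, and were seeded with pre-formed fibrils (PFF) on day 7 and grown for 18 more days. The sources differ on WT neurons, since the growth protocol names seeding for the transgenic neurons only, while the study's account of the RNA experiment counts days from seeding for both genotypes. If WT neurons were not seeded, genotype and seeding cannot be told apart. The study also states for its experiments at large that DMSO and AdipoRon cultures came from the same animals, and that genotypes were compared between littermates. It excepts the RNA sequencing from its statement that sessions with littermates were repeated. Whether the genotypes compared here were littermates is therefore not known. All cultures were prepared from newborn pups and exposed to cytosine arabinoside against dividing glia, and AdipoRon, a small molecule agonist of the adiponectin receptors, was given at 10 µM for 24 h, with DMSO as its vehicle.

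The values used here were the authors' mean expression of each gene as log2 CPM (CPM, read counts scaled to 1e+06 reads per library), given once per table. Each mean was taken to cover only the cultures of the pair of groups that its table is named for. This is an inference from the names, from the different genes listed in each table and from the check of scale given below, and every mean and difference rests on it. On this reading the tables provide a DMSO mean and an AdipoRon mean, each over both genotypes, and a Tau mean and a WT mean, each over both treatments. Values per culture were not used, so the depth of single cultures and the spread between them are not known here, no difference below carries an error or a test, and which of them exceed the variation between cultures is not known. Each of these means pools a pair of groups, so the AdipoRon difference within Tau and that within WT neurons cannot be told apart. Whether the tables were normalized separately is not stated and was assumed. As a check of their scale, the DMSO and AdipoRon means summed as CPM were set against the sum of the Tau and WT means, with a log2 ratio of -0.001 on average (SD 0.011) over 19399 genes and at most 0.014 away from 0 for any of the 55 genes.

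Lysosomes break down proteins, glycans and lipids delivered by endocytosis and autophagy, at acid pH. Most soluble hydrolases carry mannose 6-phosphate and travel from the Golgi on the receptors encoded by M6pr and Igf2r, and the transcription factor TFEB and its relatives bind E-box motifs near many lysosomal genes. In brain, loss of single members causes lysosomal storage disease, often with neuronal degeneration. Microglia, the resident phagocytes of the brain, are also rich in lysosomal enzymes, so cell composition bears on the level of these transcripts in a culture.

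Lysosomal transcripts were abundant in these cultures. In the DMSO mean, 53 of the 55 genes lay above the median of all genes (3.89 log2 CPM), and the median of the list was 6.42 log2 CPM. Together the members took 12655 CPM with DMSO, or 1.27% of the reads. Psap, Ctsd and Ctsb alone made up 50.5% of that sum.

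Per kilobase of transcript, Ctsd, the aspartic protease cathepsin D, had the highest level of the list, at 9.95 on the log2 scale of CPM per kilobase in the DMSO mean. Psap, the precursor of the saposins that activate sphingolipid hydrolases, followed at 9.89 on this per-length scale, and the cysteine protease gene Ctsb at 8.54. Lamp1, a major glycoprotein of the lysosomal membrane, stood at 8.06 per kilobase. These 4 genes lay above 99% of genes with a known length, with percentiles between 99.5 (Lamp1) and 99.9 (Ctsd). Other membrane proteins with high levels per kilobase were Laptm4a (7.55) and Lamp2 (7.28). At the low end stood Ctsk, best known as the collagen-degrading cathepsin of osteoclasts, at 0.83 per kilobase and 3.36 CPM. The next lowest were the polytopic membrane protein gene Mfsd8 (2.19), the heparan sulfatase gene Sgsh (2.19) and the beta-mannosidase gene Manba (2.21). By class, the median level per kilobase was 5.64 for proteases, 5.66 for sorting receptors and cofactors, 5.30 for membrane proteins, 4.86 for lipid or phosphate hydrolases and 3.93 for glycosidases and sulfatases, against 2.58 for all genes with a length. No spread between cultures was available to tell neighbours in this order apart.

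**Figure D1:**
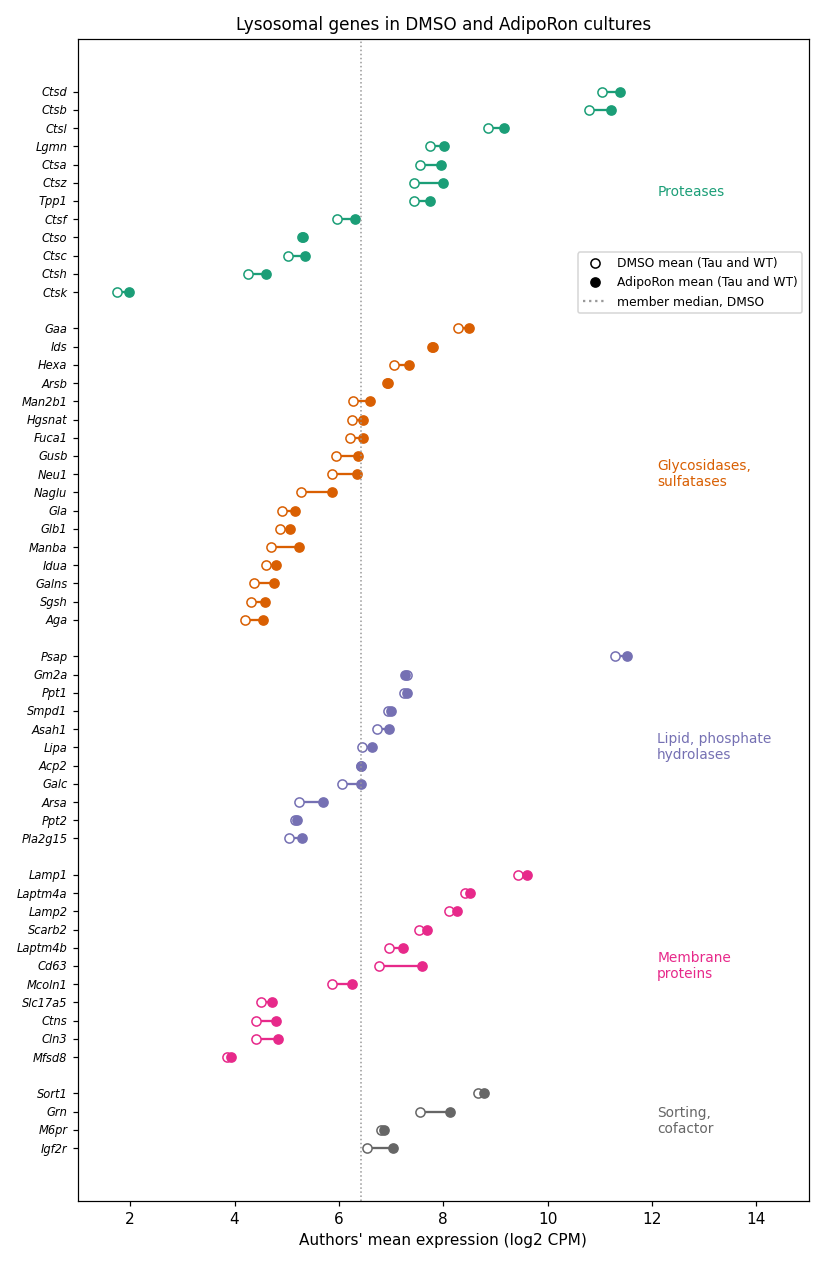
Authors' mean expression of the 55 lysosomal genes (x axis, log2 CPM, not divided by transcript length, so genes are compared within a row only), by class, with the DMSO mean as open circles, the AdipoRon mean as filled circles and the DMSO median of the list as a dotted line. The filled circle lies to the right of the open one for 53 of 55 genes, by most for Cd63, and the means have no error bars because values per culture were not used.

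With AdipoRon, levels of lysosomal transcripts were mostly higher than with DMSO. The AdipoRon mean exceeded the DMSO mean for 53 of 55 genes, compared with 55.0% of all 19693 genes given in both tables. The median difference of the members was 0.26 (log2 CPM), which is 20.1% above DMSO, against 0.02 for all genes. A difference over 0.25 (18.9%) was seen for 29 members, or 52.7%, and in the opposite direction for 0. Over all genes, 15.9% lay more than 0.25 higher with AdipoRon and 15.1% more than 0.25 lower. Among the 9424 genes with a mean over 4 log2 CPM in each table, which takes in 53 members, these shares were 11.7% and 9.41%. Summed over the list, lysosomal transcripts stood at 12655 CPM with DMSO and 15367 CPM with AdipoRon, a ratio of 1.21. The count rests on the limit chosen, since 44 members were higher by more than 0.1 and 5 by more than 0.5.

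Proteases had the largest share of members past this limit. All 12 had a higher AdipoRon mean, 10 of them by more than 0.25, with a median difference of 0.33. Ctsd stood at 11.04 log2 CPM in the DMSO mean and 11.38 in the AdipoRon mean, which is 26.6% higher. Ctsb stood at 10.79 and 11.21 in the same order, 33.9% higher. Summed over the class, proteases had 5248 CPM with DMSO and 6770 with AdipoRon. The largest protease difference was that of Ctsz, a carboxypeptidase, at 7.45 with DMSO and 7.99 with AdipoRon (0.54). Ctsa, the protective protein that stabilises neuraminidase and beta-galactosidase, differed by 0.40, and Ctsh, Ctsf, Ctsc, Ctsl, Tpp1 and Lgmn by 0.26 to 0.35. The exceptions were Ctso, with a difference of 0.02, and the scarce Ctsk (0.22).

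Glycosidases and sulfatases ranged from -0.03 (Ids) to 0.58 (Naglu) with AdipoRon minus DMSO. Of 17 genes, 10 were more than 0.25 higher with AdipoRon, and the class median was 0.27. Naglu, which removes N-acetylglucosamine from heparan sulfate, had the largest difference of the class, from 5.28 to 5.86 log2 CPM (0.58). Manba differed by 0.53, and the sialidase gene Neu1 by 0.49. Gusb, the beta-glucuronidase often used as a lysosomal marker enzyme, differed by 0.41 and Galns, a sulfatase of keratan sulfate, by 0.38. Aga, Man2b1, Hexa, Sgsh and Fuca1 differed by 0.26 to 0.35. By contrast, Ids and Arsb, which also serve glycosaminoglycan breakdown, had nearly equal means. The iduronate sulfatase gene Ids had 7.81 log2 CPM with DMSO and 7.78 with AdipoRon, and Arsb, a sulfatase of dermatan sulfate, had 6.92 and 6.93. Idua, Glb1, Gaa, Hgsnat and Gla lay between, at 0.18 to 0.25.

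Lipid and phosphate hydrolases had the lowest class median, 0.19, with 2 of 11 genes past 0.25. These 2 were Arsa (0.46), which desulfates sulfatide, and Galc (0.37), which acts next on the galactosylceramide so formed, both enzymes of myelin lipid breakdown. Psap had 11.29 log2 CPM with DMSO and 11.51 with AdipoRon, 16.3% higher. The ceramidase gene Asah1, the acid lipase gene Lipa and the phospholipase gene Pla2g15 differed by 0.19 to 0.24. For Gm2a, the activator of GM2 ganglioside breakdown, the means were 7.31 and 7.27, and for the acid sphingomyelinase gene Smpd1 they were 6.94 and 6.99. Ppt1 and Ppt2, the palmitoyl thioesterases, and the acid phosphatase gene Acp2 also differed by less than 0.1.

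Among membrane proteins, Cd63 stood apart. This tetraspanin of late endosomes, lysosomes and exosomes had 6.77 log2 CPM in the DMSO mean and 7.60 in the AdipoRon mean, the widest gap of the 55 genes (0.83, or 77.6% higher). Its difference lay above that of 98.8% of all genes. Cln3 (0.43), the calcium channel gene Mcoln1 (0.38), the cystine exporter gene Ctns (0.38) and Laptm4b (0.27) were the other membrane proteins past 0.25. The structural glycoproteins differed less, with 0.18 for Lamp1 and 0.16 for Lamp2. Scarb2, which carries beta-glucocerebrosidase to the lysosome, also differed by 0.16. Laptm4a and Mfsd8 differed by less than 0.1.

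Sorting receptors split. Igf2r, the large cation-independent mannose 6-phosphate receptor, had 6.54 log2 CPM with DMSO and 7.04 with AdipoRon (0.49), while the cation-dependent receptor gene M6pr had 6.80 and 6.87 (0.07). Sort1, which encodes sortilin, differed by 0.11. Grn, which encodes progranulin, a sortilin ligand that is cut into granulins in the lysosome, had 7.55 and 8.12 (0.57). M6pr and Sort1 lay within the range of most genes, since the middle 50% of genes over 4 log2 CPM ran from -0.08 to 0.14.

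**Figure D2:**
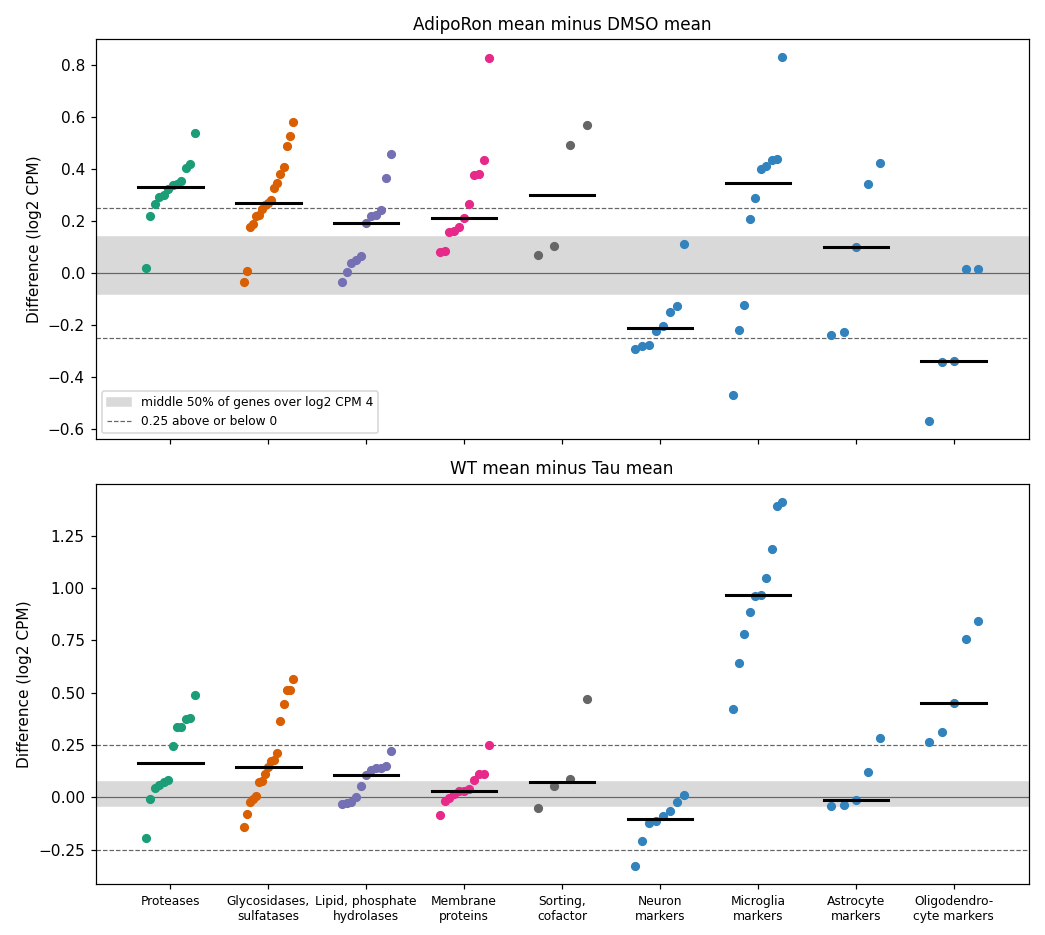
Differences between the authors' means (y axes, log2 CPM) for each lysosomal gene by class and for 4 lists of cell type markers, with AdipoRon minus DMSO above and WT minus Tau below. Points are genes, sorted within a class, black bars are class medians, the grey band holds the middle 50% of genes over 4 log2 CPM and dashed lines mark 0.25. Protease points lie mostly above the upper line in the AdipoRon panel, and all 10 microglia markers lie above it in the WT panel.

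Between genotypes, most lysosomal genes differed by less than 0.25, and those past it were higher in WT. The median of WT minus Tau was 0.08 (log2 CPM), against -0.002 for all 19890 genes given in both tables, and 41 of 55 genes had the higher mean in WT. A difference over 0.25 was found for 11 members (20.0%) in favour of WT and for 0 in favour of Tau. Over all genes, 8.85% were more than 0.25 higher in WT and 12.6% more than 0.25 higher in Tau. Among genes over 4 log2 CPM in each table the shares were 3.87% and 1.15%.

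The 11 genes were 5 proteases (Ctsh, Ctsc, Ctsd, Ctsz and Lgmn), 5 glycosidases or sulfatases (Arsb, Gusb, Galns, Man2b1 and Naglu) and Grn. Arsb had the widest gap, with 6.61 log2 CPM in the Tau mean and 7.17 in the WT mean (0.57). Gusb had 5.88 and 6.39 (0.51), and Galns differed by 0.51 too. Ctsd had 11.01 in Tau and 11.38 in WT, 29.6% higher, and Grn had 7.61 and 8.08, 38.3% higher. By contrast, no lipid or phosphate hydrolase and no membrane protein reached 0.25, although Cd63 came close at 0.249. Ctsb differed by 0.07, Ctsl by -0.01 and Psap by -0.03, although these are among the most abundant members, as Ctsd is. The lowest values were those of Ctsk (-0.19) and Ids (-0.14), both with a higher mean in Tau.

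Both differences use the same 21 cultures, cut by treatment and by genotype, so they are set side by side with no count of shared genes. Grn had a difference of 0.57 for AdipoRon minus DMSO and 0.47 for WT minus Tau, and Ctsd had 0.34 and 0.37 in the same order. Manba had 0.53 and -0.01, and Igf2r 0.49 and 0.09. Arsb had 0.01 and 0.57.

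**Figure D3:**
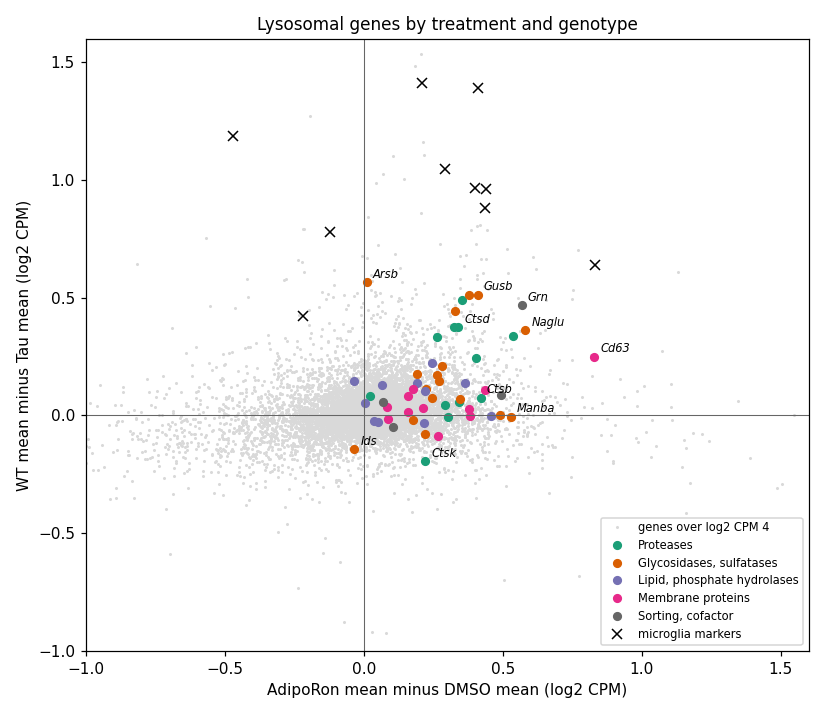
AdipoRon mean minus DMSO mean (x axis) against WT mean minus Tau mean (y axis), both in log2 CPM, for the 55 lysosomal genes coloured by class, the 10 microglia markers (crosses) and genes over 4 log2 CPM (grey, of which 58 fall outside the axes). Lysosomal genes spread to the right of 0 while most stay near 0 on the y axis, and the microglia markers lie between 0.42 and 1.41 on the y axis and on both sides of 0 on the x axis.

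Markers of other cells were present and also differed between the means. The 10 microglia markers were all listed for each pair of groups. Their sum was 487 CPM in the DMSO mean, 625 in the AdipoRon mean, 377 in the Tau mean and 718 in the WT mean. Aif1, P2ry12 and Tmem119 were scarce, at 1.13, 1.38 and 1.57 log2 CPM in the Tau mean. All 10 were more than 0.25 higher in WT than in Tau, from 0.42 (P2ry12) to 1.41 (Aif1), and their sum was 1.91 times as high in WT, compared with 1.09 times for the lysosomal genes. The sum of the microglia markers was 1.28 times as high with AdipoRon as with DMSO, compared with 1.21 times for the lysosomal genes. With AdipoRon, 6 of 10 microglia markers were more than 0.25 higher than with DMSO. The lysosomal glycoprotein gene Cd68 (0.83) and the complement genes C1qa, C1qb and C1qc (0.29 to 0.44) were among these, while Cx3cr1 was lower (-0.47) and Csf1r and P2ry12 had differences of -0.12 and -0.22. The part of microglial RNA in the lysosomal differences was not tested, and in cultures measured whole, more cells of a type and more RNA per cell cannot be told apart.

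Neuronal markers were mostly lower with AdipoRon. Of 8 neuronal markers, 7 had a lower AdipoRon mean, with a median of -0.21 and a sum of 4398 CPM with DMSO and 3835 with AdipoRon, and 3 of them, Snap25, Syt1 and Gad1, were more than 0.25 lower. Their sums were 4327 CPM in the Tau mean and 3937 in the WT mean. The 5 astrocyte markers summed to 3770 CPM with DMSO and 4128 with AdipoRon, and to 3932 in Tau and 3945 in WT. Gfap, the astrocyte filament gene, was at 10.70 log2 CPM in the DMSO mean, so the cultures labelled as neurons also held glial RNA. The astrocyte markers split with AdipoRon. Gfap (0.34), Aldh1l1 (0.42) and Aldoc (0.10) had the higher AdipoRon mean, while Aqp4 (-0.23) and Slc1a3 (-0.24) had the lower. Oligodendrocyte lineage markers summed to 712 CPM with DMSO, 657 with AdipoRon, 545 in Tau and 802 in WT. Of the vascular markers, Pecam1 was near the floor at -0.99 log2 CPM with DMSO, and Pdgfrb was at 4.72. The symbol Cldn5 was not listed for any pair of groups. The part of these cells in the lysosomal differences was not tested either.

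TFEB and related factors bind the E-box CACGTG, most often with flanking bases that extend it to TCACGTGA, and promoter sequences were therefore searched for these letters. RefSeq promoters (GRCm38.p6, 250 bases before to 50 after a start site) were matched for 46 of the 55 genes, with 55 promoters in all since some genes have several. On either strand, CACGTG was found in 15 of these 55 promoters (27.3%) and in 7.15% of all 32851 promoters. The longer TCACGTG, which contains the first motif, was found in 13 (23.6%) and in 3.77% of all, and the palindrome TCACGTGA, which contains both, in 6 (10.9%) and in 0.974% of all. Such motifs are known near many lysosomal genes, so these shares describe the sequences and not the cultures. The 32851 promoters were not limited to genes expressed here.

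The 6 genes with the palindrome are shown because they hold the longest of the 3 motifs, with the site closest before a start site for each, 30 bases written 5′ to 3′ along the gene's strand and the motif in capitals. These stretches lie at chr2:164833749-164833778 (plus strand) for Ctsa, chr7:142387908-142387937 (minus strand) for Ctsd, chrX:134601182-134601211 (minus strand) for Gla, chr7:126583340-126583369 (minus strand) for Cln3, chr8:3500462-3500491 (plus strand) for Mcoln1 and chr17:12769696-12769725 (minus strand) for Igf2r.
Ctsa: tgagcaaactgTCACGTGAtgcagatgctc
Ctsd: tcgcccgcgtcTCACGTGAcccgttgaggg
Gla: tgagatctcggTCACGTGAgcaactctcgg
Cln3: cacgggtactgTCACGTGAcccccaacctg
Mcoln1: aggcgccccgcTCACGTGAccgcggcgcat
Igf2r: gccgactcaggTCACGTGAcgctccgggga

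The motif began 8 bases before the start site in Igf2r, 13 in Ctsa, 46 in Mcoln1, 99 in Ctsd, 122 in Cln3 and 195 in Gla, and Ctsa, Igf2r and Gla each held a second copy. In the AdipoRon comparison, 5 of these 6 genes were more than 0.25 higher than with DMSO, and Gla differed by 0.246. Their median difference was 0.39, against 0.23 for the 40 matched members without the palindrome, of which 19 passed 0.25. For the 13 genes with TCACGTG the median was 0.34, against 0.22 for the 33 without it. For the 15 genes with CACGTG it was also 0.34, against 0.22 for the 31 without it. For WT minus Tau, the medians with and without the motif were 0.10 and 0.08 for the palindrome. They were 0.11 and 0.06 for TCACGTG, and 0.11 and 0.08 for CACGTG. The 9 members without a matched promoter enter none of these medians. Whether the motif goes with the differences was not tested. Among matched genes without TCACGTG, Cd63 (0.83), Grn (0.57) and Ctsz (0.54) had larger differences than most genes with it. Lamp1, Gaa and Glb1, with TCACGTG, differed by 0.18 to 0.22. A match only says that these letters are present, and binding was not measured.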

How the data were processed

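RNA had been sequenced from 21 cultures, grouped here by the genotype and treatment in their titles. The authors trimmed the reads, used STAR with mm10 and then RSEM, and tested groups in edgeR (generalized linear model). The authors' results name GRCm39, and the tables are named after Rsubread. The normalization factors and the filter are not given in the sources used here. The authors deposited, for each of 4 pairs of groups, a mean expression per gene as log2 CPM, and their own comparison (fold change, likelihood ratio, p-value, false discovery rate and call). The comparison columns were not used. The edgeR fits planned for counts per sample and their alternatives (another normalization, filter, replicate block, replicates left out) were not run, since no values per culture were used here. The number of unused columns of single samples was 0, and the depth of single cultures is not given in the tables.

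Differences are AdipoRon mean minus DMSO mean and WT mean minus Tau mean, and summed levels are sums of CPM. The Tau and WT means, like the DMSO and AdipoRon means, share no culture, but hold 10 and 11 cultures if each covers the pair of groups its table is named for. Lengths are those of Ensembl canonical transcripts in GENCODE vM39, matched by symbol for 55 members and 89.2% of genes in the DMSO table. Promoter sequences are from RefSeq (GRCm38.p6), the assembly that mm10 stands for. Members and lists were chosen with earlier results of these data known. The use of pair means, the limit of 0.25 for counting, the level of 4 log2 CPM, the classes, the 3 motifs, the choice of printed sites and the V-ATPase list were chosen after the tables were seen, and all 3 motifs searched are reported. Named are genes of every class, the highest and lowest among them. The counting code was run on simulated pair means with planted differences and little noise. This checks the code only, and not the reading of the authors' means or the counts given here. Python 3.11.15, pandas 2.3.3 and matplotlib 3.10.9 were used. The tags of the samples give the dose as 10 µM, whereas the treatment protocol has 10 mM.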

Additional observations from a re-analysis of the deposited data

How the results depend on the processing

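The share of members above the median of all genes was 96.4% in the DMSO table, the same over the genes found in each of the 4 tables, and 98.2% in each of the AdipoRon, Tau and WT tables. Against the genes above the median only, 65.5% of members lay above the median of those genes. The other alternatives were chosen after seeing the data. Members higher with AdipoRon numbered 44 at a difference over 0.1 and 5 over 0.5, and 25 after subtracting the median of all genes or of genes over 4 log2 CPM. Members higher in WT numbered 26 over 0.1 and 3 over 0.5, and 11 or 12 after subtracting either median. At the limit of 0.1, 2 members (Ctsk and Ids) were lower in WT, and at every limit tried 0 were lower with AdipoRon. DESeq2 scaling, the unfiltered fit and leaving out replicates were not run, since they need counts per sample. No paired analysis was possible because no values per culture were used here. The sample titles do carry replicate numbers, and the study states for its experiments at large that cultures from the same animal received each treatment. The spread between cultures is not known here, which limits every difference given.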

Other observations

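Genes of the V-ATPase, the proton pump that acidifies lysosomes, were taken by symbol (Atp6v0 and Atp6v1). Of the 20 subunit genes given in both the DMSO and the AdipoRon table, 15 had a higher AdipoRon mean, 1 by more than 0.25 (Atp6v0d2, 0.59) and 1 was lower by more than 0.25 (Atp6v0a4, -0.52), with a median of 0.11. Of the 19 given in both the Tau and the WT table, 13 had the lower mean in WT, with a median of -0.09. A mean over 4 log2 CPM in each table was found for 17. With AdipoRon, 13 of these 17 had a higher mean than with DMSO, but 0 by more than 0.25, and the median difference of these was 0.11 (log2 CPM), from -0.13 (Atp6v0a1) to 0.22 (Atp6v0e2). Between genotypes, 11 of 17 had the lower mean in WT, with a median of -0.05. Over every gene of that level, 11.7% were more than 0.25 higher with AdipoRon. The difference between the subunits and the hydrolases was not tested.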
